A study of Mus musculus with 4 samples.

Results

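9 genes of the osteoblast lineage were examined in cultured mouse bone marrow cells that received either R, a treatment known only by that letter, or the solvent DMSO. They were listed by name as regulators and markers of bone-forming cells, at a time when earlier results of these data were known, and all 9 were found among the 54532 genes of the deposited table. The RNA came from CB6F1 cells, an F1 hybrid mouse strain, that were labelled MSCs, released from whole bone marrow by digestion and grown in high-glucose DMEM with serum and antibiotics. The 2 R libraries came from cells given R at 0.5 µM (the labels write "um" and do not say what R is), and the 2 libraries called vehicle here from cells with DMSO alone. Sample titles of both groups carry the term aGVHD, and the labels give no age, sex or number of animals. The labels do not tell whether replicates are separate cultures or animals. The p-values thus cover the spread among these 4 samples, and that spread may be technical.

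Osteoblasts arise from mesenchymal progenitors under the transcription factors Runx2 and Sp7 (osterix), with Dlx5 acting upstream and beside them. Committed cells display the alkaline phosphatase Alpl and the parathyroid hormone receptor Pth1r, lay down collagen with the matrix proteins Sparc (osteonectin), Spp1 (osteopontin) and Ibsp (bone sialoprotein), and secrete Bglap (osteocalcin) when mature. Spp1 and Sparc are not restricted to bone: macrophages make osteopontin, and many stromal cells make osteonectin.

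The cultures held abundant macrophage RNA beside stromal RNA. Recovered reads numbered 16534440 to 18085183 per library, and a 2 kb gene at 1 FPKM (read abundance scaled to exon length and library size) stood for about 35.3 to 38.6 reads. The stromal genes Cxcl12 and Pdgfra were at 462 to 517 and 10.7 to 14.9 FPKM, whereas Lepr, a marker of marrow stromal cells, was at 0.316 to 0.690 FPKM. Markers of macrophages and monocytes, 20 genes, summed to 16485 and 12606 FPKM in R replicates 1 and 2 and 24282 and 21664 FPKM in vehicle replicates 1 and 2, with none at 0 in every library. Most of each sum came from 1 gene, Lyz2, at 8891 and 7061 FPKM in R and 14569 and 12540 FPKM in vehicle. R replicate 2 differed from R replicate 1 with gene length, by a median log2 difference of -0.26 in tested genes of up to 2911 exon bases and 0.19 in those of at least 5536. In vehicle, replicate 2 differed from replicate 1 by -0.09 and 0.07 in the same length classes.

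Ibsp gave the largest difference among the tested members, with a mean 4.12-fold lower in R than in vehicle. The 2 most abundant members differed in opposite directions, Spp1 lying lower and Sparc higher in R. The regulators Runx2, Sp7 and Dlx5, the receptor Pth1r and the phosphatase Alpl differed by at most 0.21 on the log2(FPKM + 1) scale. In limma, at a Benjamini-Hochberg adjusted p under 0.05 over all 12176 tested genes, 0 of 8 tested members were called, where 0.345% of all tested genes were called higher, 1.37% lower and 1.72% in either direction. At an unadjusted p under 0.05 there were 2 members, Ibsp and Spp1, both lower in R, beside 16.0% of all genes. Voom, the limma test on recovered reads, called 1 member, Ibsp, beside 2.75% of the genes it tested. Quantile normalization called 1 member, Sparc, beside 2.03%, and removing a gene length trend called 0 members beside 4.54%. Bglap was under the minimum mean of 1 FPKM and was not tested. The libraries of the groups did not overlap for 4 of the 8 tested members, beside 47.9% of all tested genes, so that share is near the background. R lay above vehicle for 2 of them and below it for 2, beside 22.7% and 25.2% of all tested genes. The median log2 fold change of the 8 was 0.03, and that of all tested genes was 0.00.

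**Figure D1:**
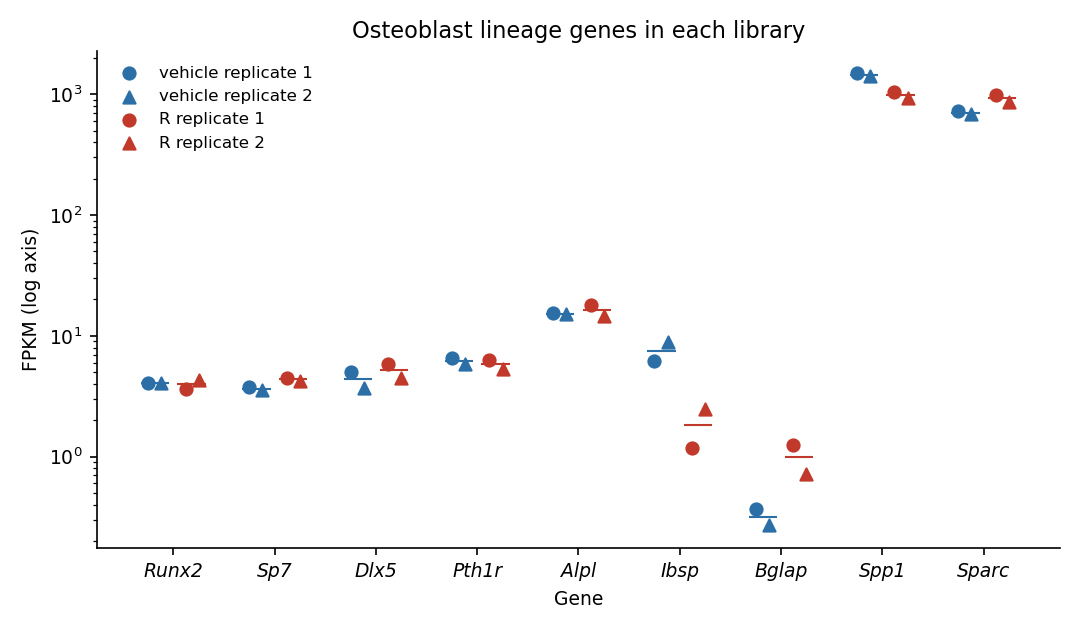
FPKM on a log axis of each of the 9 genes in each library, with vehicle in blue and R in red, circles for replicate 1, triangles for replicate 2 and short lines for group means (n = 2). Ibsp lies lower and Bglap higher in both R libraries, while Runx2, Dlx5, Pth1r and Alpl overlap between the groups.

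3 promoters are shown because Ibsp, Spp1 and Bglap had the largest ratios of group means among the members. Each is the RefSeq window of 250 bases before to 50 bases after a start site, on GRCm38.p6, read 5′ to 3′ on the strand of the gene. Capitals mark matches on either strand to ACCACA (the core bound by RUNX factors), TATAAA or CCAAT.
Ibsp, chr5:104299037-104299336, + strand: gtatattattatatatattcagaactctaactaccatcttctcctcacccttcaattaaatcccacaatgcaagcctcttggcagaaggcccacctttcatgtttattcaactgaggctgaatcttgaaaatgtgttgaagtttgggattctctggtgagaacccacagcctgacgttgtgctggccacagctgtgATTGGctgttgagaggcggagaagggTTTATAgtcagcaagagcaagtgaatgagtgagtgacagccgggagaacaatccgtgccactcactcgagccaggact
Spp1, chr5:104434861-104435160, + strand: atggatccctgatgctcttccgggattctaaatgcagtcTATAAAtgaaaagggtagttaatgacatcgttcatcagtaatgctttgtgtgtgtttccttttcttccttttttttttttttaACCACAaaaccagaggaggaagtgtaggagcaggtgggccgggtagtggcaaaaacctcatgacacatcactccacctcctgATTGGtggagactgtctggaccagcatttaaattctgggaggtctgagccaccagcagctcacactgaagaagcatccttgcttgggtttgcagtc
Bglap, chr3:88384417-88384716, - strand: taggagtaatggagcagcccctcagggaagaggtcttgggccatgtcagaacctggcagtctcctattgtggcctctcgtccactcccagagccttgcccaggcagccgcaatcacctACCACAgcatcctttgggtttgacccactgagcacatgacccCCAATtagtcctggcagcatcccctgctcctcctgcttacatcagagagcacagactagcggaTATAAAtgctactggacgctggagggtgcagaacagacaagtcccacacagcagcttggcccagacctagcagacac
ACCACA stood once in the Spp1 window, from 128 bases before the start, and once in that of Bglap, from 132 bases before it. It stood at no place in the Ibsp window, and 16.8% of all 32851 promoter windows held it. The Runx2 window (chr17:44814578-44814877) held it 3 times, and the Sparc window (chr11:55420031-55420330) once, from 35 bases after the start. A second Spp1 window, not printed (chr5:104435942-104436241), and the windows of Alpl and Pth1r did not hold it. All of the 3 printed windows held TATAAA and CCAAT in one orientation or the other, which 13.6% and 37.4% of all windows did. In Ibsp both were reversed, as TTTATA from 28 bases and ATTGG from 54 bases before the start. TATAAA stood from 27 bases before the start in Bglap, but from 211 bases before it in Spp1. Of the 9 members, 7 had a window in the table; Sp7 and Dlx5 had none. A match is a run of letters, not a measured site.

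Runx2, the factor that commits cells to the osteoblast fate, was at 3.66 and 4.32 FPKM in R replicates 1 and 2 and at 4.05 and 4.06 FPKM in vehicle replicates 1 and 2. The R libraries lay on either side of the vehicle libraries. Its log2 fold change was -0.02 with a 95% interval of -0.35 to 0.30 (limma, adjusted p = 0.957). Runx2 (ENSMUSG00000039153) spans positions 44495987 to 44814797 of chromosome 17 and has the longest exon sequence of the members, 8837 bases. The antisense gene Runx2os1 shares 519 exon bases with it and was at 0.131 to 0.349 FPKM, and whether counting used strand is not given in the sources used here.

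Sp7, which acts after Runx2 and is required for mature osteoblasts, was at 4.50 and 4.25 FPKM in R and at 3.74 and 3.54 FPKM in vehicle. Both R libraries were above both vehicle libraries, by 1.20-fold in the means. The test did not pass, at a log2 fold change of 0.21 and a 95% interval of -0.09 to 0.51 (limma, adjusted p = 0.473). Sp7 (ENSMUSG00000060284) lies at 102356606 to 102367182 of chromosome 15.

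Dlx5, a homeobox factor that activates Runx2 and Sp7, was at 5.86 and 4.52 FPKM in R and at 5.06 and 3.69 FPKM in vehicle. The groups overlapped, and the replicates of each group differed more than the group means did. The log2 fold change was 0.21 with a 95% interval of -0.25 to 0.66 (limma, adjusted p = 0.651). Dlx6, its partner 9.24 kb away on chromosome 6 and on the opposite strand, showed the same order of libraries, at 1.59 and 1.23 FPKM in R and 1.50 and 0.821 FPKM in vehicle.

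Pth1r, the receptor through which parathyroid hormone acts on osteoblasts, was at 6.34 and 5.35 FPKM in R and at 6.49 and 5.87 FPKM in vehicle. The groups overlapped, with a log2 fold change of -0.07 and a 95% interval of -0.40 to 0.26 (limma, adjusted p = 0.848). Alpl, the phosphatase that frees phosphate for mineral, was at 17.9 and 14.7 FPKM in R and at 15.3 and 15.1 FPKM in vehicle. Its vehicle libraries lay between its R libraries, with a log2 fold change of 0.09 and a 95% interval of -0.25 to 0.43 (limma, adjusted p = 0.818). Rescaling to TPM moved the median of all tested genes to 0.13 and turned the signs of Runx2 and Pth1r, to 0.10 and 0.047. Relative to that median they stood at -0.03 and -0.08, close to their values on the deposited scale.

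Ibsp, an acidic matrix protein that nucleates mineral and binds integrins, was at 1.18 and 2.49 FPKM in R and at 6.20 and 8.89 FPKM in vehicle. Both R libraries lay below both vehicle libraries, and replicate 2 was the higher of each group. These values rested on 47 and 93 reads in R and 226 and 330 reads in vehicle. The log2 fold change was -1.61 (SE 0.27, 95% interval -2.28 to -0.95), and the adjusted p was 0.0532 in limma, just over the threshold of 0.05. Voom gave a log2 fold change of -2.12 on its own scale, without the added 1 FPKM, at an adjusted p = 0.0252. The value was below 0 in each of the 11 alternatives that could be run for it, and was -1.28 without R replicate 1 and -1.95 without R replicate 2. Of the alternatives that kept both libraries of each group and had no block, voom called Ibsp, and the other 5 gave adjusted p-values in limma of 0.0542 to 0.265. The remaining 5 called it, but 4 of them leave 1 library in a group, so that the other group alone gives the spread, and 1 is the replicate block. Those 5 calls are no independent support: replicates in vehicle differed less than those in R (a median absolute log2 difference of 0.106 against 0.230), and fits without an R library called 312 to 438 genes higher and 410 to 665 lower over all genes. No stretch of 50 bases of its transcript was shared with another annotated transcript. Ibsp (ENSMUSG00000029306) lies at 104299171 to 104311469 of chromosome 5.

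Spp1, the osteopontin gene, was the most abundant member, at 1049 and 929.9 FPKM in R and at 1488 and 1420 FPKM in vehicle. Both R libraries lay below both vehicle libraries, and the mean was 1.47-fold lower in R. The log2 fold change was -0.56 (SE 0.20, 95% interval -1.04 to -0.07), and the adjusted p was 0.252 in limma. It passed in 1 alternative, without R replicate 1 (limma, adjusted p = 0.0446, log2 fold change -0.64), where the vehicle pair alone gives the spread. Spp1 (ENSMUSG00000029304) lies at 104435118 to 104441050 of chromosome 5, on the strand of Ibsp and 124 kb from it, in the gene cluster of integrin-binding phosphoproteins. The unclassified gene Gm42793 shares 309 exon bases with Spp1 and was at 4.39 to 6.23 FPKM.

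Macrophage markers lay in the same direction as Spp1 in the same libraries. The median log2 fold change of 19 tested markers was -0.59, with quartiles of -0.82 and -0.30. Of these markers, 18 were below 0, beside 6087 of all 12176 tested genes. In limma 4 fell, beside 1.37% of all tested genes called lower. These were Fcgr1, an Fc receptor, from 40.0 to 10.1 FPKM in the means (adjusted p = 0.00728), Ctss, Ly86 and Itgam, the last not called on the TPM scale (limma, adjusted p = 0.0676). Of the markers below 0, the nearest to it were Adgre1 at -0.13, Mrc1 at -0.19, C1qc at -0.25 and Csf1r at -0.26. Cx3cr1 was above 0, at 0.23. The 2 most abundant of the 19 markers were Lyz2 and C1qb. They were at 8891 and 7061 FPKM and at 2022 and 1308 FPKM in R. In vehicle they were at 14569 and 12540 FPKM and at 2538 and 2359 FPKM. Neither was called (limma, adjusted p = 0.321 and 0.381). Spp1 per unit of each of the 19 markers, a set of ratios chosen after the values were seen, went both ways. R lay above vehicle for 7, among them Lyz2 (0.118 and 0.132 in R, 0.102 and 0.113 in vehicle). R lay below vehicle for 4, among them Csf1r (2.42 and 2.22 in R, 2.86 and 2.83 in vehicle) and Adgre1 (4.89 and 4.01 in R, 6.33 and 5.62 in vehicle), and the groups overlapped for 8. The osteoclast genes Acp5 and Ctsk, from another cell that makes osteopontin, were at 1.20 and 0.844 FPKM and at 49.1 and 38.0 FPKM in R, and at 1.06 and 0.906 FPKM and at 37.5 and 36.0 FPKM in vehicle. Other osteoclast markers went both ways, with Atp6v0d2 at 5.04 and 4.34 FPKM in R and 7.10 and 7.22 FPKM in vehicle, Clcn7 at 23.4 and 24.2 FPKM in R and 29.6 and 29.7 FPKM in vehicle, and Itgb3 at 4.01 and 4.88 FPKM in R and 2.57 and 2.70 FPKM in vehicle. Of 10 osteoclast markers, Calcr was at 0 in every library, and the list's summed level was 92.1 and 82.1 FPKM in R and 81.5 and 80.7 FPKM in vehicle. The part of either cell type in the Spp1 values was not tested, and in bulk RNA fewer cells of a type and less RNA per cell cannot be told apart.

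Sparc, a collagen-binding glycoprotein abundant in bone, was at 992 and 864 FPKM in R and at 719 and 684 FPKM in vehicle. Both R libraries lay above both vehicle libraries, and the mean was 1.32-fold higher in R. The log2 fold change was 0.40 (SE 0.19, 95% interval -0.06 to 0.86), and the adjusted p was 0.372 in limma. Quantile normalization gave 0.53 and a call (limma, adjusted p = 0.0401), and no other alternative did. Sparc (ENSMUSG00000018593) lies at 55394500 to 55423183 of chromosome 11.

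The balance of the 2 leading matrix transcripts differed between groups more than it did between replicates. Spp1 per unit of Sparc was 1.06 and 1.08 in R and 2.07 in both vehicle libraries (2.069 and 2.075), a ratio within each library that scaling between libraries cannot move. This ratio was chosen after the values were seen, and with 2 libraries a group an exact permutation test cannot give a p below 0.333, so none is given. Such a shift is not particular to this pair. The macrophage markers Lyz2 and Cd68 were also lower, and Col1a1 also higher, in both R libraries than in both vehicle libraries. The part of cell types in this ratio was not tested. In vehicle the order of levels was Spp1, Sparc, Alpl, Ibsp, Pth1r, Dlx5, Runx2, Sp7 and Bglap. In R, Spp1 and Sparc overlapped, and Ibsp stood next to last, where its range overlapped that of Bglap. Other neighbours whose libraries overlapped were Pth1r and Dlx5 and also Sp7 and Runx2 in R, and Ibsp and Pth1r and also Dlx5 and Runx2 in vehicle.

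**Figure D2:**
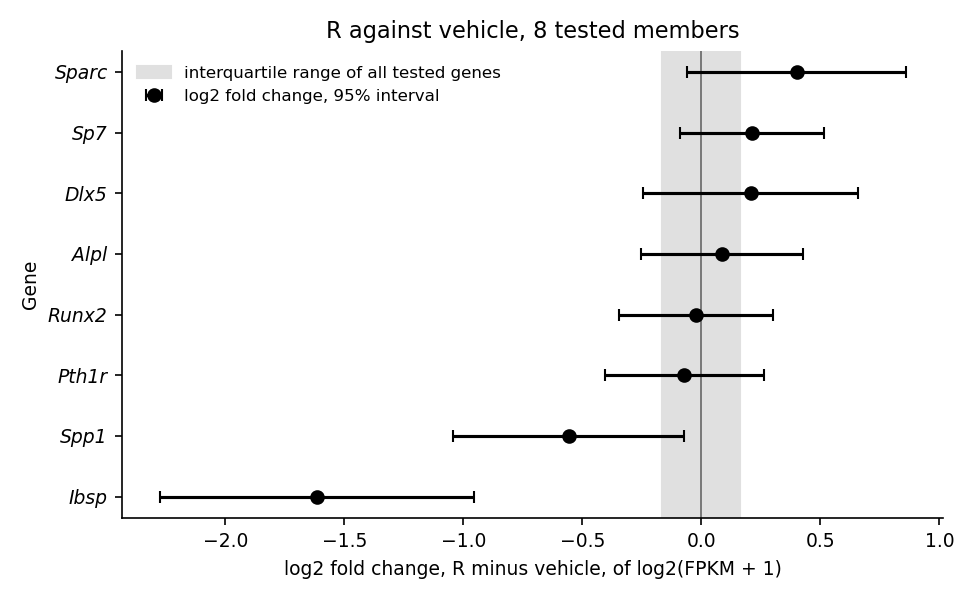
Log2 fold changes of the 8 tested members (points) with 95% intervals (bars) from limma, R minus vehicle on the log2(FPKM + 1) scale, beside the interquartile range of all 12176 tested genes (grey). The intervals of Ibsp and Spp1 lie below 0, and those of the other 6 members include 0.

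Bglap, the osteocalcin gene, was at 1.26 and 0.716 FPKM in R and at 0.367 and 0.271 FPKM in vehicle. Both R libraries lay above both vehicle libraries, but the values rested on 15 and 8 reads in R and 4 and 3 reads in vehicle. The ratio of the summed reads at equal depth was 3.13 (95% exact interval 1.30 to 8.63, which covers counting error only). Without a filter on low values limma gave a log2 fold change of 0.58 and an adjusted p = 0.388. Its neighbour Bglap2, a second osteocalcin gene 4.80 kb away on chromosome 3, lay the other way, at 4.84 and 2.93 FPKM in R and 6.98 and 6.03 FPKM in vehicle (log2 fold change -0.64; limma, adjusted p = 0.226, and log2 fold changes of -0.93 without R replicate 1 and -0.36 without R replicate 2). Bglap3, the third copy, was listed at 0 in every library.

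The coding sequences of Bglap and Bglap2 are shown because the reads of these genes are hard to tell apart. They are from the GENCODE M21 transcripts on GRCm38, read 5′ to 3′ from the start to the stop codon on the - strand, in lower case with the differing bases in capitals.
Bglap, chr3:88383635-88384415, spliced: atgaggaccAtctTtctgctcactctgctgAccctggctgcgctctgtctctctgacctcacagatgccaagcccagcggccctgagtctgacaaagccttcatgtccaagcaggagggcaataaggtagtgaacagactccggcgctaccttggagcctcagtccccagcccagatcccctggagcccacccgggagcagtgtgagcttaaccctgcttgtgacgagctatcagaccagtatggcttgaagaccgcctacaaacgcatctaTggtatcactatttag
Bglap2, chr3:88377870-88378650, spliced: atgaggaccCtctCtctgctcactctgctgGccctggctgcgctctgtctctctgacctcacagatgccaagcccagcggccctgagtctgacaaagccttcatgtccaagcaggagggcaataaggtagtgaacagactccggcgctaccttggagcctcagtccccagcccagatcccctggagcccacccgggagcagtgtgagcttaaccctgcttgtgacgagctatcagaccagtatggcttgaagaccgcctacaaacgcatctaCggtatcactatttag
Over 288 bases they differed at 4, an identity of 98.6%, and the longest stretch without a difference was 241 bases. Of all 50-base stretches of Bglap transcripts, 51.3% also occurred in Bglap2 and 19.3% in Bglap3. Of those of Bglap2, 69.2% also occurred in Bglap and 37.9% in Bglap3, and 88.2% were shared with either. The split of reads between these genes, and so the values of each, is uncertain. How the authors counted reads that fit both is not given in the sources used here.

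Bglap took 25.4% (15.0 to 38.4%) and 24.2% (11.1 to 42.3%) of the reads of Bglap and Bglap2 in R replicates 1 and 2. In vehicle replicates 1 and 2 it took 6.45% (1.79 to 15.7%) and 5.56% (1.16 to 15.4%), with exact Clopper-Pearson 95% intervals that cover counting error only. The share was higher in both R libraries, though the lower ends of the R intervals meet the upper ends of the vehicle intervals. The summed FPKM of both genes was 6.10 and 3.65 in R and 7.35 and 6.31 in vehicle, with both R libraries below both vehicle libraries. This sum scales each gene by its own exon length, 618 bases in Bglap and 471 in Bglap2, so it still depends on the uncertain split. In reads the groups overlapped, with 15 and 44 for Bglap and Bglap2 in R replicate 1 and 3 and 51 in vehicle replicate 2. Most of the reads were assigned to Bglap2, so the sum largely follows that gene and gives no separate direction.

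**Figure D3:**
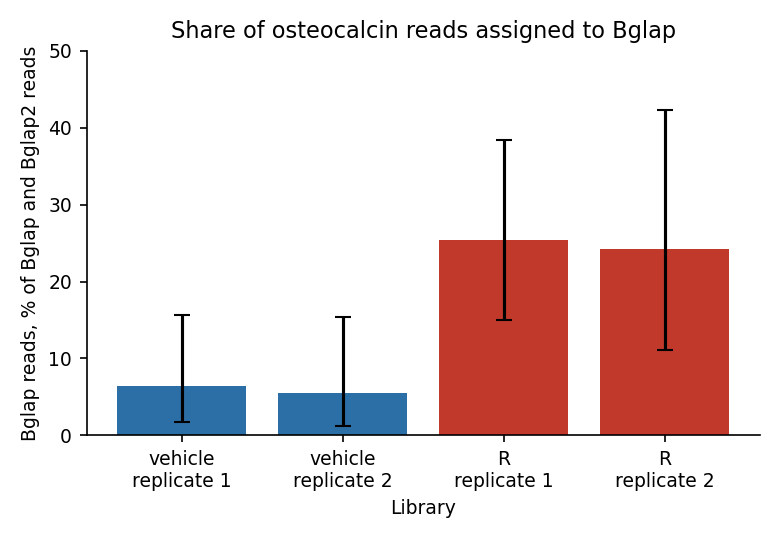
Bars give reads assigned to Bglap as a percentage of those assigned to Bglap and Bglap2 in each library, with exact 95% intervals. The 2 R libraries stand at 25.4% and 24.2% and the 2 vehicle libraries at 6.45% and 5.56%, on 33 to 62 reads per library.

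Replicate differences had the same sign in both groups for every member, and over all tested genes they correlated between groups at 0.35. The share of all tested genes with the same sign was not counted. Replicate 2 was the lower one for Sp7, Alpl, Bglap, Spp1, Dlx5, Pth1r and Sparc, by log2 differences of -0.07 to -0.40 in R and -0.02 to -0.37 in vehicle. It was the higher one for Ibsp, by 0.68 in R and 0.46 in vehicle, and for Runx2, by 0.19 in R and by 0.00 in vehicle. Ibsp had the largest replicate difference of the members in each group. The members' exon lengths ran from 618 bases in Bglap to 8837 in Runx2, and the part of the length trend between libraries in these differences was not tested.

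Of 20 further transcription factors that act in osteoblasts, 14 were tested in limma and 12, without Zfp521, in voom, and 0 were called by either. In limma there were 3 higher and 0 lower at an unadjusted p under 0.05, beside 872 and 1075 of all 12176 tested genes. The median log2 fold change of the 14 was 0.06. These 3 were Twist1, which restrains Runx2, at 27.3 and 23.8 FPKM in R and 19.1 and 15.1 FPKM in vehicle, Sox4 at 11.1 and 21.5 and at 6.28 and 8.53 FPKM, and Zfp521 at 4.81 and 6.39 and at 3.58 and 4.15 FPKM. Cbfb, the partner subunit that strengthens DNA binding by Runx2, was at 23.3 and 29.5 FPKM in R against 25.8 and 25.6 FPKM in vehicle, so that the groups overlapped. It was named after its values were seen.

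Of 23 genes of bone matrix and mineralization, 20 were tested. In limma 1 rose and 0 fell, beside 0.345% and 1.37% of all tested genes. Of the 20, 17 had log2 fold changes above 0, beside 6089 of all 12176 tested genes. The median log2 fold change of the 20 was 0.34 as deposited, and was 0.48 with TPM rescaling and 0.41 with quantile normalization. R lay above vehicle without overlap for 15 of the 20 genes, beside 22.7% of all tested genes, and below it for Mgp and Bglap2. At an unadjusted p under 0.05 in limma, 9 were higher and 2 lower, beside 872 and 1075 of all 12176 tested genes. The gene that rose was Omd, osteomodulin, a proteoglycan of mineralized matrix, from 2.27 ± 0.0982 to 6.40 ± 0.0103 FPKM (SD, n = 2 each; limma, adjusted p = 0.0132). Tmem119, a membrane protein of osteoblasts, averaged 20.4 ± 1.96 FPKM with R against 12.3 ± 0.487 FPKM with vehicle (SD, n = 2 each; limma, adjusted p = 0.0676). Vdr, the vitamin D receptor, was at 4.97 ± 0.0463 and 2.69 ± 0.279 FPKM (SD, n = 2 each; limma, adjusted p = 0.0694) and was called by voom together with Omd. Col1a1, the main collagen chain of bone, was at 852 and 795 FPKM in R and 532 and 526 FPKM in vehicle (limma, adjusted p = 0.156). Col1a1 was called on the TPM scale and after quantile normalization (limma, adjusted p = 0.0404 and 0.0140). It was not called by voom or with the length trend removed. Sparc per unit of Col1a1 was 1.16 and 1.09 in R and 1.35 and 1.30 in vehicle. Mgp, an inhibitor of mineralization, was at 114 and 96.3 FPKM in R and 155 and 148 FPKM in vehicle (limma, adjusted p = 0.178). The summed macrophage level, most of it Lyz2, was lower in these R libraries and is given above. Its part in the matrix values was not tested.

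Of 10 genes of osteocytes and of the phosphoprotein cluster, 4 were tested and 0 were called in limma or in voom. Beside 1075 of all 12176 tested genes, 1 of the 4 was lower at an unadjusted p under 0.05 in limma. That gene was Pdpn, an early osteocyte marker also found on other stromal cells, at 16.0 and 15.5 FPKM in R and 19.4 and 20.7 FPKM in vehicle. Fam20c, the kinase that phosphorylates these secreted proteins, was at 22.4 and 21.6 FPKM in R and 24.0 and 25.4 FPKM in vehicle. Of the other genes of the cluster that holds Ibsp and Spp1, Dspp and Mepe were listed at 0 in every library and Dmp1 was at 0.0615 to 0.282 FPKM. Sost, the osteocyte inhibitor of Wnt signalling, was listed at 0 as well.

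Of 23 genes of the pathway of Pth1r, 18 were tested and 0 were called in limma or in voom. At an unadjusted p under 0.05 in limma, 3 were higher and 1 lower, beside 872 and 1075 of all 12176 tested genes. The median log2 fold change of the 18 was -0.03. Adcy6, an adenylyl cyclase that makes cyclic AMP, was at 11.4 and 14.3 FPKM in R and 7.02 and 8.10 FPKM in vehicle, with a log2 fold change of 0.69. Gnas, which encodes the stimulatory G protein, was at 5.82 and 6.71 FPKM in R and 2.69 and 3.97 FPKM in vehicle, although antisense and alternative transcripts at its imprinted locus make its value uncertain. Nr4a1, an early target of parathyroid hormone, was at 17.4 and 14.3 FPKM in R and 21.2 and 22.9 FPKM in vehicle. The ligand Pthlh was listed at 0 in every library.

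Markers of other cells that the cultures could hold were counted in the same fit, where 0.345% of all tested genes were called higher and 1.37% lower. Of 12 tested stromal markers 1 fell, Ly6a (the stem cell antigen Sca-1, also an interferon-responsive gene), at 28.4 and 22.0 FPKM in R and 90.6 and 78.3 FPKM in vehicle (limma, adjusted p = 0.0113). The stromal list, most of it Cxcl12, summed to 712 and 803 FPKM in R and 800 and 768 FPKM in vehicle. Of 5 tested chondrocyte markers 1 rose, Col2a1, the main cartilage collagen, at 57.8 and 51.3 FPKM in R and 26.6 and 24.3 FPKM in vehicle (limma, adjusted p = 0.0220). Voom also called Col10a1, at 6.17 and 7.84 FPKM in R and 3.53 and 3.65 FPKM in vehicle. All 5 were above 0, beside 6089 of all 12176 tested genes. At an unadjusted p under 0.05 in limma, 3 of them were higher, beside 872 of all 12176. The chondrocyte list, most of it Col2a1, summed to 82.8 and 78.1 FPKM in R and 45.1 and 41.0 FPKM in vehicle. Of 6 tested osteoclast markers 1 rose, Mmp9, a gelatinase also made by other myeloid cells, at 9.11 and 9.51 FPKM in R and 3.33 and 3.94 FPKM in vehicle (limma, adjusted p = 0.0155). Of 3 tested neutrophil and megakaryocyte markers 1 fell, Csf3r, at 11.2 and 10.6 FPKM in R and 19.7 and 18.4 FPKM in vehicle (limma, adjusted p = 0.0479), a call lost on the TPM scale (limma, adjusted p = 0.0863). In limma 0 of 5 adipocyte, 0 of 2 endothelial and 0 of 1 lymphocyte markers passed. At an unadjusted p under 0.05 there were 2, 0 and 1, beside 16.0% of all tested genes in either direction. Voom called 1 adipocyte marker, Cebpa, at 122 and 108 FPKM in R and 71.6 and 68.1 FPKM in vehicle, as did limma on the TPM scale, after quantile normalization and with the length trend removed. The part of these markers in the members' values was not tested.

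**Figure D4:**
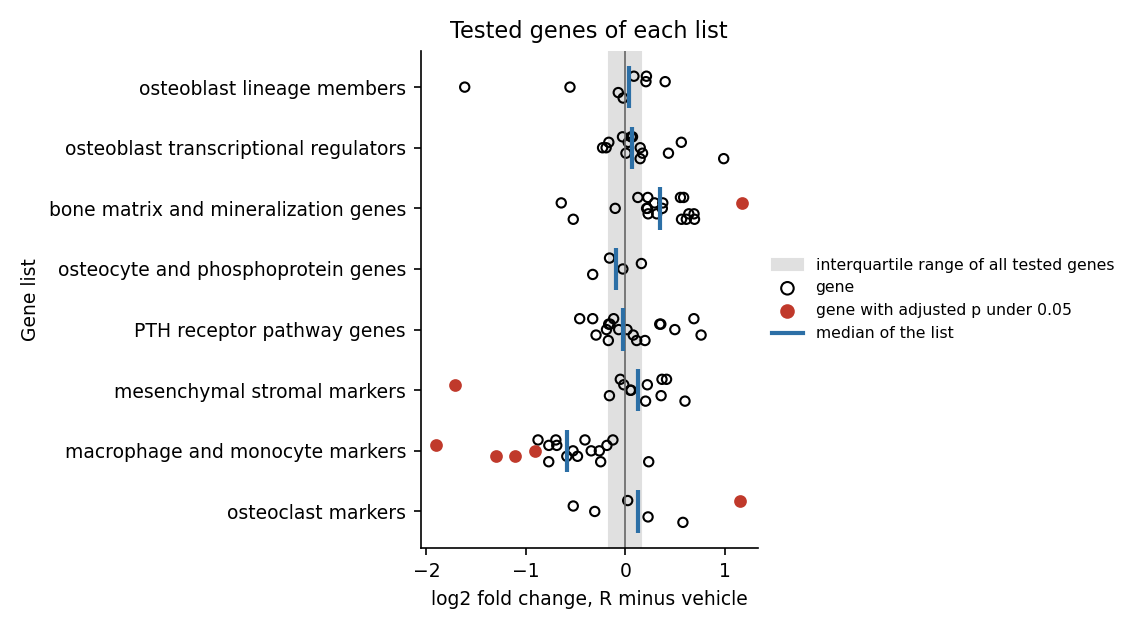
Log2 fold changes, R minus vehicle, of the tested genes of each list (circles, red where limma's adjusted p is under 0.05), with the median of each list (blue line) and the interquartile range of all tested genes (grey). The bone matrix genes have a median of 0.34 and the macrophage markers one of -0.59, while the 8 tested members have a median of 0.03 and spread from -1.61 to 0.40.

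**Figure D5:**
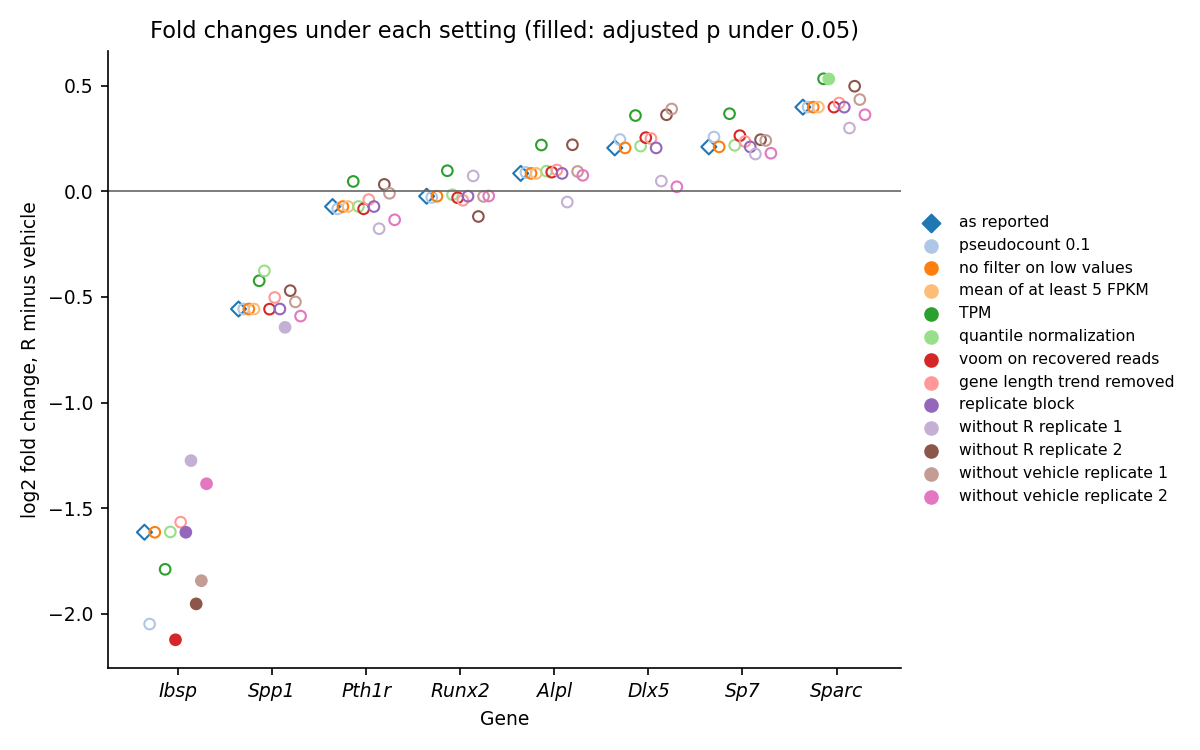
Log2 fold changes of the 8 tested members as reported (diamonds) and under each alternative (circles), filled where the adjusted p is under 0.05. Ibsp lies between -1.28 and -2.12 and is filled in 6 of 11 alternatives, 5 of which leave 1 library in a group or use the block, Spp1 and Sparc are each filled in 1, and the other 5 members in none.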

How the data were processed

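Expression was read from the authors' deposited table of FPKM values, 1 per Ensembl gene and library, per the file headers; its 10 empty columns were not used. GRCm38, mm10 and edgeR 3.18.1 are named per the submitters' processing notes without a role. Of the aligner, counter and annotation, each is not given in the sources used here. GENCODE M21 (GRCm38) gave symbols, 1-based coordinates and union exon lengths for 54495 genes. FPKM times exon length gave whole reads, within 0.02, for 96.3 to 96.4% of values above 0. The 12176 genes whose mean was 1 FPKM or more were fitted as log2(FPKM + 1), which understates changes of low genes, in limma 3.58.1 (R 4.3.3) with a variance trend, 2 residual degrees of freedom and Benjamini-Hochberg adjustment over all tested genes. A run on simulated counts, with equal spread in all libraries and no length trend, checked signs and the recovery of large changes. It cannot show how the test does with the uneven replicate spread seen here. Alternatives were a pseudocount of 0.1, other filters, TPM, quantile normalization, voom on 11564 genes with whole reads, removal of a gene length trend, a replicate block and leaving out each library. Members, lists, named genes and tests were chosen with earlier results of these data known. The naming rule took all members, their copies and neighbours, and of each related list the called genes and the 2 with the smallest p; further genes are background checks or, where said, chosen after their values were seen.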

Additional observations from a re-analysis of the deposited data

How the results depend on the processing

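Over all tested genes, limma gave 42 higher and 167 lower in R. The higher count was 83 in voom, and the counts were 221 higher and 332 lower with the gene length trend removed, and 0 and 0 of 24958 without a filter. Leaving out 1 library gave 96 to 438 higher and 193 to 665 lower. Of the members, quantile normalization called 1 higher (Sparc), voom 1 lower (Ibsp), and leaving out 1 library 0 higher and 1 to 2 lower. Of the 4 related lists together, 1 gene was higher and 0 lower as reported, against 4 higher on the TPM scale, 3 after quantile normalization, 2 in voom, 5 with the length trend removed, 0 without a filter and 0 with a mean of at least 5 FPKM, which leaves out Omd. Leaving out 1 library gave 1 to 9 higher and 0 to 5 lower. The causes were not tested. On the TPM scale 58 genes were higher and 124 lower, and the signs of Runx2 (0.10) and Pth1r (0.047) turned. Leaving out 1 R library gave Runx2 -0.12 to 0.073, Pth1r -0.18 to 0.033 and Alpl -0.050 to 0.22, none of them called. Without a filter the calls of Omd and of all called marker genes were lost (limma, adjusted p = 0.115 for Omd). On the TPM scale those of Csf3r and Itgam were lost, and leaving out a vehicle library lost those of Csf3r, Ctss, Itgam and Col2a1. Without an R library the vehicle pair alone gives the spread, and the lone R library is assumed to vary like it. Without a vehicle library limma estimated an infinite prior, so its p-values there hold no spread of single genes.

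The labels do not say whether same-numbered libraries share an animal, culture or day, and with 2 pairs this was not settled from the data. With a replicate block limma called 891 genes higher and 1009 lower, 0 members higher and 1 lower (Ibsp), and 14 related genes higher and 3 lower. The differences between numbers correlated between groups at 0.35 across genes, which are not independent, with 2 pairs. The prior of that fit was 91.3 degrees of freedom beside 1 residual.

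Depth limits Bglap, at 3 to 15 reads a library. With 2 libraries a group, log2 fold changes had a median standard error of 0.15.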
